A study of Mus musculus with 4 samples.

Results

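The 9 genes described here encode cytokines and transcription factors of T helper 17 (Th17) cells: Il17a, Il17f, Il22, Il21, Rora, Il23r, Ahr, Batf and Maf. Their members were chosen by symbol, as every non-control probe whose RefSeq accession belongs to one of these genes. This gave 10 probes, 2 for Ahr and 1 for each other gene, among 39429 probes of 20659 named genes. The RNA was from the lymphocytes of the lamina propria, the tissue beneath the gut epithelium, in C57BL6 mice on day 10. All mice received dextran sulfate sodium (DSS), an agent of chemical colitis that damages the epithelium of the colon. There were 4 groups, namely wild type given DSS, wild type given both DSS and LIF (leukemia inhibitory factor, which signals through gp130 as interleukin-6 does), Stat4-/- given DSS, and Stat4-/- given both. Each group was hybridized to 1 one-colour array and used 5 mice, so no group has a replicate and no test of a difference was possible. The labels do not state whether those mice were pooled, and untreated mice are not analysed here.

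Th17 cells are CD4 T cells that form when naive cells meet transforming growth factor beta with interleukin-6, and interleukin-23 keeps them in an inflamed tissue. STAT3, BATF and IRF4 act early in that program, RORalpha helps to switch on the interleukin-17 genes, the aryl hydrocarbon receptor (AhR) is needed for interleukin-22, and c-MAF drives interleukin-21 and interleukin-10. In the gut, interleukin-17A and interleukin-17F recruit neutrophils, interleukin-22 acts on the epithelium, and innate lymphoid cells and gamma-delta T cells make the same cytokines. STAT4, the factor deleted in the knockout, transmits interleukin-12 and interleukin-23 signals.

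The DNA just before 3 of the cytokine genes is shown because it carries the letters that these factors are known to bind. Windows cover the 250 bases before the RefSeq gene start on assembly GRCm38.p6, 5′ to 3′ on the gene's strand, with motif matches in capitals. The Il17a window is chr1:20730655-20730904 on the + strand, Il17f is chr1:20784271-20784520 on the - strand and Il21 is chr3:37232637-37232886 on the - strand.
Il17a: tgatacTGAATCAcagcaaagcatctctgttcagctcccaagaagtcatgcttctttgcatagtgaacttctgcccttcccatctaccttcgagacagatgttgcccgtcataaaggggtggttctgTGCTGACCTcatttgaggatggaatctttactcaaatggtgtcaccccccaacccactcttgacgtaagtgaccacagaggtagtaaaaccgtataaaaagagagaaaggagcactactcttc
Il17f: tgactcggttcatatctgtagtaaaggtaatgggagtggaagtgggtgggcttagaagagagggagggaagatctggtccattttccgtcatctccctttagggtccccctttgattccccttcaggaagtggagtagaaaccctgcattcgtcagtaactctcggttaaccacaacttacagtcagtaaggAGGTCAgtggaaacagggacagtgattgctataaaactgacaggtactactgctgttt
Il21: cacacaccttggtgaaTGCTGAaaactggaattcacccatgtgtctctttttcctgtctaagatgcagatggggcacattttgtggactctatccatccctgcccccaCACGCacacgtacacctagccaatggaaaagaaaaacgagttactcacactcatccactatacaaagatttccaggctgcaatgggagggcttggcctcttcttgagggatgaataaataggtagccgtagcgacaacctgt

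The letters searched, on both strands, were AGGTCA (ROR core motif), TGANTCA (AP-1 site, where BATF binds with JUN proteins), TGCTGA (MAF core motif), GCGTG (AhR core site) and TTCNNNGAA (STAT site). Capitals in Il17a mark an AP-1 site 244 to 238 bases before the start, a MAF core motif 123 to 118 bases before it and a ROR core motif on the minus strand 120 to 115 bases before it. The last pair overlaps. Capitals in Il17f mark a ROR core motif 58 to 53 bases before the start. Those in Il21 mark a MAF core motif 234 to 229 bases before it and an AhR core site on the minus strand 142 to 138 bases before it. Windows were found for 7 of the 9 members. The ROR core motif was in 3 of 7, against 14% of 32851 windows, and the MAF core motif was in 3 of 7, against 16.1%. The AP-1 site was in 1 of 7, against 6.75%, the AhR core site in 2 of 7, against 28.2%, and the STAT site in 0 of 7, against 7.02%. The Batf and Il22 windows held none of the 5 motifs. The start in the table may not be the main start of Il22, so its sequence is not shown and its place among the 7 windows is uncertain. A match describes letters and is not a measured binding site.

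Levels below are log2 of the scanner's processed signal minus the log2 of that array's 75th percentile. The 75th percentile signal was 122.9 for wild type DSS, 23.8 for wild type DSS and LIF, 45.3 for knockout DSS and 43.3 for knockout DSS and LIF, and 61.7%, 37.6%, 44.9% and 45.7% of probes were well above background. The array of wild type DSS and LIF stood apart. It correlated at 0.80 to 0.82 with the other arrays over 12674 probes, and those correlated at 0.95 to 0.98 with each other. The wild type DSS and knockout DSS arrays were read in one scan and the other 2 arrays each in a scan of their own. Scan and LIF therefore cannot be told apart, nor can scan and genotype under DSS and LIF. The Stat4 probe was well above background on every array, at −0.49, 0.21, 0.31 and −0.48 in the order above. It does not separate the genotypes, and no source used here places it inside or outside the deleted part. The arrays are therefore called labelled knockout.

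Markers were set against the label of the cells. All 14 pan-T cell markers were well above background on wild type DSS and 13 of 14 on each other array, where Cd247 was not. Their summed scaled signal was 39.4 for wild type DSS, 69.5 for wild type DSS and LIF, 26.4 for labelled knockout DSS and 25.2 for labelled knockout DSS and LIF. Neutrophil markers summed to 549, 378, 3220 and 2477, with 6, 4, 7 and 7 of 10 well above background. All 9 matched epithelial markers and 6 to 9 of 9 pancreatic acinar markers were well above background on each array. Markers of other cell types were thus detected beside those of lymphocytes, and their part in the values below was not tested. In such bulk RNA fewer cells of a type and less RNA per cell cannot be told apart.

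**Figure D1:**
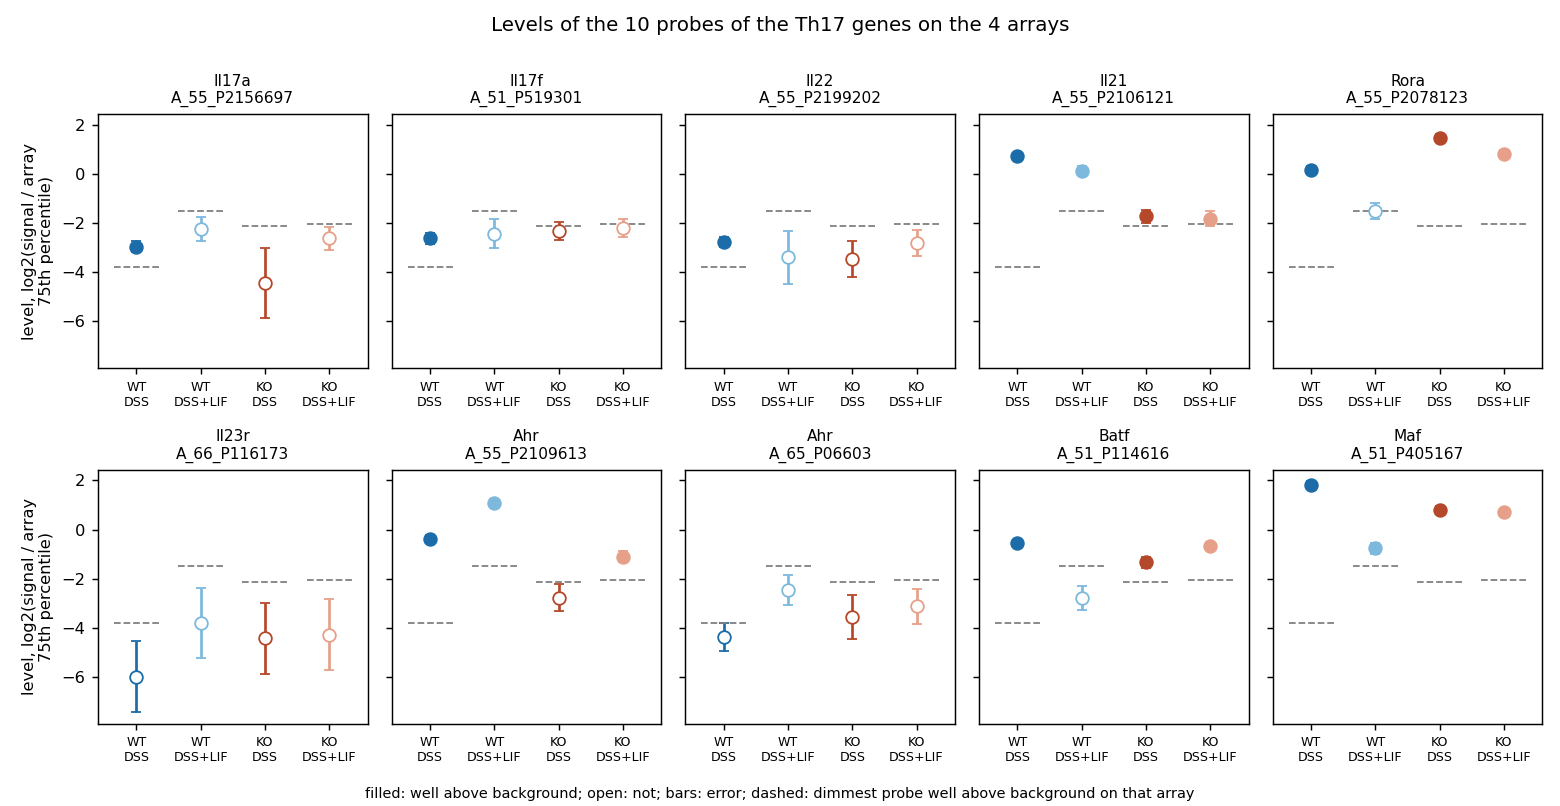
Level of each of the 10 probes (log2 signal relative to the array's 75th percentile) on the 4 arrays, where KO is the labelled knockout; filled points are well above background, open points are not, bars are the scanner software's error (SD over spots for Batf) and dashed lines mark the dimmest probe well above background on that array. Il17a, Il17f and Il22 are filled on wild type DSS alone, Il21 and Maf are filled on all 4 arrays, and Il23r and the second Ahr probe on none.

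The effector cytokines Il17a, Il17f and Il22 were well above background on the wild type DSS array and on no other. Il17a, the founding member of the interleukin-17 family (probe A_55_P2156697, NM_010552), had a processed signal of 15.8 ± 2.52 (software error) on wild type DSS. Its signal was 5.07 ± 1.76 on wild type DSS and LIF, 2.10 ± 2.09 on labelled knockout DSS and 7.10 ± 2.33 on labelled knockout DSS and LIF. The first of these stands above the other 3, and the labelled knockout DSS value is about the size of its own error.

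Il17f, which encodes the closest relative of interleukin-17A and pairs with it (A_51_P519301, NM_145856), had signals of 19.98 ± 2.86, 4.41 ± 1.79, 9.18 ± 2.32 and 9.56 ± 2.44 in the same order. Il22, whose product acts on epithelial cells (A_55_P2199202, NM_016971), had 18.2 ± 2.67, 2.27 ± 1.71, 4.12 ± 2.11 and 6.18 ± 2.27. Unscaled, wild type DSS was thus the brightest array for all 3 genes. It was also the brightest for 91.9% of the 12674 probes well above background on every array. After scaling, Il17f was lowest on wild type DSS (−2.62) and between −2.43 and −2.18 elsewhere. The scaled level of Il17a was −2.96 on wild type DSS, −2.23 on wild type DSS and LIF, −4.43 on labelled knockout DSS and −2.61 on labelled knockout DSS and LIF. That of Il22 was −2.76, −3.39, −3.46 and −2.81.

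The detection limit of each array bears on these 3 genes. The dimmest probe well above background had a scaled level of −3.79 on wild type DSS, −1.49 on wild type DSS and LIF, −2.13 on labelled knockout DSS and −2.04 on labelled knockout DSS and LIF. The levels of Il17a, Il17f and Il22 on wild type DSS lie under the last 3 of these limits, so no fold, nor any bound on one, could be given for them in any comparison. Of 1523 probes with a wild type DSS signal from 15.8 to 19.98, the span of these 3 genes, 84.2% were not well above background on wild type DSS and LIF, 80.2% on labelled knockout DSS and 79.9% on labelled knockout DSS and LIF. The loss of all 3 cytokines from the other arrays is thus what most probes of that brightness showed. Il17 cytokine transcripts were detectable in wild type DSS cells, and a difference from the other groups was not measurable at the brightness of these arrays.

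**Figure D2:**
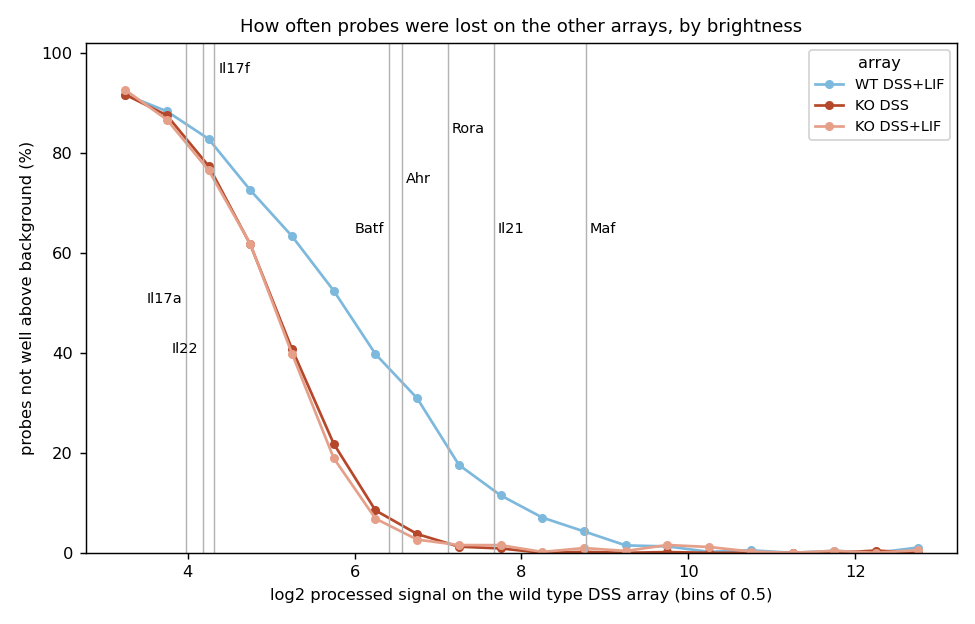
Share of probes well above background on wild type DSS that were not so on each other array (y axis, percent), against their log2 processed signal on wild type DSS (x axis, bins of 0.5); KO is the labelled knockout and vertical lines mark the Th17 genes. Il17a, Il22 and Il17f lie in bins where 76.5% or more of the probes are lost on each other array, and Maf where 4.28% are lost on wild type DSS and LIF.

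Il21 was the cytokine of the set that could be measured throughout. It encodes interleukin-21, which Th17 and follicular helper T cells secrete and which acts back on Th17 cells through STAT3. Its probe (A_55_P2106121, NM_021782) gave processed signals of 203.0 ± 20.4 on wild type DSS, 26.2 ± 3.15 on wild type DSS and LIF, 13.7 ± 2.53 on labelled knockout DSS and 12.3 ± 2.51 on labelled knockout DSS and LIF. Scaled levels were 0.72 ± 0.15, 0.14 ± 0.17, −1.73 ± 0.27 and −1.81 ± 0.29. Both wild type arrays stand above both labelled knockout arrays by more than these errors, which cover the measurement of 1 spot and not differences between mice. Both labelled knockout levels lie close above the detection limits of their arrays, −2.13 and −2.04, so the fold sizes rest on dim values. Il21 under DSS was 5.47-fold lower in the labelled knockout (−2.45 ± 0.30 on the log2 scale) and under DSS and LIF 3.87-fold lower (−1.95 ± 0.34). The first stayed at least 2-fold under every scaling and background correction tried (−2.67 to −1.08). The second was −0.24 with normexp background correction at an offset of 50, −0.36 without an offset and −0.51 against pan-T cell markers. An offset of 50 is above the 75th percentile processed signal of every array but wild type DSS. Adding it draws differences of dim probes towards 0, here and for the genes below. LIF differences of Il21 were −0.59 ± 0.23 in wild type and −0.09 ± 0.40 in the labelled knockout, and the sign of the latter turned with either normexp setting (0.32 and 0.97) and against pan-T cell markers (0.31).

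Il23r, the receptor subunit by which Th17 cells sense interleukin-23, was not well above background on any array. Its probe (A_66_P116173, NM_144548) had signals of 1.94, 1.70, 2.11 and 2.23 in the order wild type DSS, wild type DSS and LIF, labelled knockout DSS and labelled knockout DSS and LIF. It gave no measurement of a difference.

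Of the transcription factors, Rora encodes RORalpha, which acts on the interleukin-17 genes and is also made by innate lymphoid cells. Its probe (A_55_P2078123, NM_013646) had processed signals of 138.5 ± 14.0 on wild type DSS, 8.45 ± 1.93 on wild type DSS and LIF, 126.9 ± 12.9 on labelled knockout DSS and 76.1 ± 7.94 on labelled knockout DSS and LIF. The array of wild type DSS and LIF is the low one and was not well above background there. Scaled levels were 0.17 on wild type DSS, 1.49 on labelled knockout DSS and 0.81 on labelled knockout DSS and LIF. Rora was 2.49-fold higher in the labelled knockout under DSS (1.31 ± 0.21). It stayed at least 2-fold higher in 6 of 7 other settings (up to 1.67) and fell to 0.69 with normexp at an offset of 50. With LIF in the labelled knockout Rora was 1.59-fold lower (−0.67 ± 0.21). In the main values it was at least 3.17-fold lower with LIF in wild type and, under DSS and LIF, at least 4.95-fold higher in the labelled knockout. With normexp at an offset of 50 and no background filter these differences were −0.45 and 0.49 on the log2 scale, under 2-fold. Those 2 bounds share the array that stands apart, on which 21.2% of 1666 probes within 1.2-fold of Rora's wild type DSS signal were not well above background either.

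Ahr encodes the aryl hydrocarbon receptor, a sensor of dietary and microbial ligands. Its 2 probes differed in brightness. The brighter (A_55_P2109613, NM_013464) had signals of 94.8 ± 9.75 on wild type DSS, 50.1 ± 5.36 on wild type DSS and LIF, 6.66 ± 2.51 on labelled knockout DSS and 20.1 ± 3.09 on labelled knockout DSS and LIF. It was well above background on all but labelled knockout DSS. The dimmer probe (A_65_P06603) was not well above background on any array, with signals of 3.80 to 5.96, so it gives no second reading. Ahr was 2.73-fold higher with LIF in wild type (1.45 ± 0.21), with the scaled level at −0.37 on wild type DSS and 1.08 on wild type DSS and LIF. This difference was 0.97 beyond the median of all measured probes in that comparison. It stayed at least 2-fold in 5 of 7 other settings, at 1.09 with normexp without an offset. The exceptions were 0.60 with normexp at an offset of 50 and 0.76 against pan-T cell markers. In the main values it was at least 2.03-fold higher with LIF in the labelled knockout (0.50 with normexp at an offset of 50 and no background filter). Between genotypes under DSS, labelled knockout minus wild type, the bound for Ahr in the main values was at least 3.38-fold lower, and the difference was −0.37 with normexp at an offset of 50 and no background filter. Of 1836 probes within 1.2-fold of its wild type DSS signal, 4.68% were not well above background on labelled knockout DSS. Under DSS and LIF it was 4.55-fold lower (−2.18 ± 0.27), and −0.46, −0.88 and −0.74 with normexp at an offset of 50, normexp without an offset and pan-T cell scaling.

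Batf encodes an AP-1 factor that opens Th17 genes with IRF4. It had 10 spots per array (A_51_P114616, NM_016767), of which 9 were kept on wild type DSS. Spot signals ranged from 76.2 to 99.2 on wild type DSS, 1.89 to 5.71 on wild type DSS and LIF, 13.0 to 22.6 on labelled knockout DSS and 25.5 to 30.7 on labelled knockout DSS and LIF. These unscaled ranges do not overlap, but the arrays differ in brightness and the spots are repeats within an array. After scaling, wild type DSS lay above labelled knockout DSS and LIF by 0.11 ± 0.15, less than the error. On wild type DSS and LIF 0 of 10 spots were well above background, and on both labelled knockout arrays 10 of 10 were. Scaled levels were −0.53 ± 0.12 (SD over spots) on wild type DSS, −1.33 ± 0.23 on labelled knockout DSS and −0.65 ± 0.09 on labelled knockout DSS and LIF. Under DSS, Batf was thus 1.74-fold lower in the labelled knockout (−0.80 ± 0.26), a value that moved to −0.08 with normexp at an offset of 50. With LIF it was at least 1.95-fold lower in wild type and 1.61-fold higher in the labelled knockout (0.68 ± 0.25). Under DSS and LIF it was at least 1.80-fold higher in the labelled knockout. With normexp at an offset of 50 and no background filter these 3 differences were −0.05, 0.32 and 0.28. Of 1892 probes within 1.2-fold of Batf on wild type DSS, 37.4% were not well above background on wild type DSS and LIF, 6.82% on labelled knockout DSS and 5.6% on labelled knockout DSS and LIF.

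Maf encodes c-MAF, which drives Il21 and Il10 in T helper cells and is also made by macrophages. Its probe (A_51_P405167, NM_001025577) was well above background on every array, with signals of 436.5 ± 43.7 on wild type DSS, 14.0 ± 2.29 on wild type DSS and LIF, 79.7 ± 8.31 on labelled knockout DSS and 70.5 ± 7.44 on labelled knockout DSS and LIF. Scaled levels were 1.83, −0.76, 0.82 and 0.70. Wild type DSS is highest, wild type DSS and LIF lowest, and the 2 labelled knockout arrays differ by less than their combined error. Maf was 6.04-fold lower with LIF in wild type (−2.59 ± 0.28) and stayed at least 2-fold lower under every setting tried (−3.29 to −1.41). With LIF in the labelled knockout it differed by −0.11 ± 0.21. The LIF difference in the labelled knockout minus that in wild type was 2.48 ± 0.35 for Maf and 0.50 ± 0.46 for Il21, with no test. Over 12674 probes this quantity had a median of −0.41, and 20.7% of probes were at least 1 higher. Between genotypes under DSS, Maf was 2.02-fold lower in the labelled knockout (−1.01 ± 0.21) and 2.77-fold higher under DSS and LIF (1.47 ± 0.28). The first value lies at the 2-fold line (−1.12 to −0.66 over the settings), and the second was 0.32 with normexp at an offset of 50, 0.57 without an offset and 2.91 against pan-T cell markers.

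**Figure D3:**
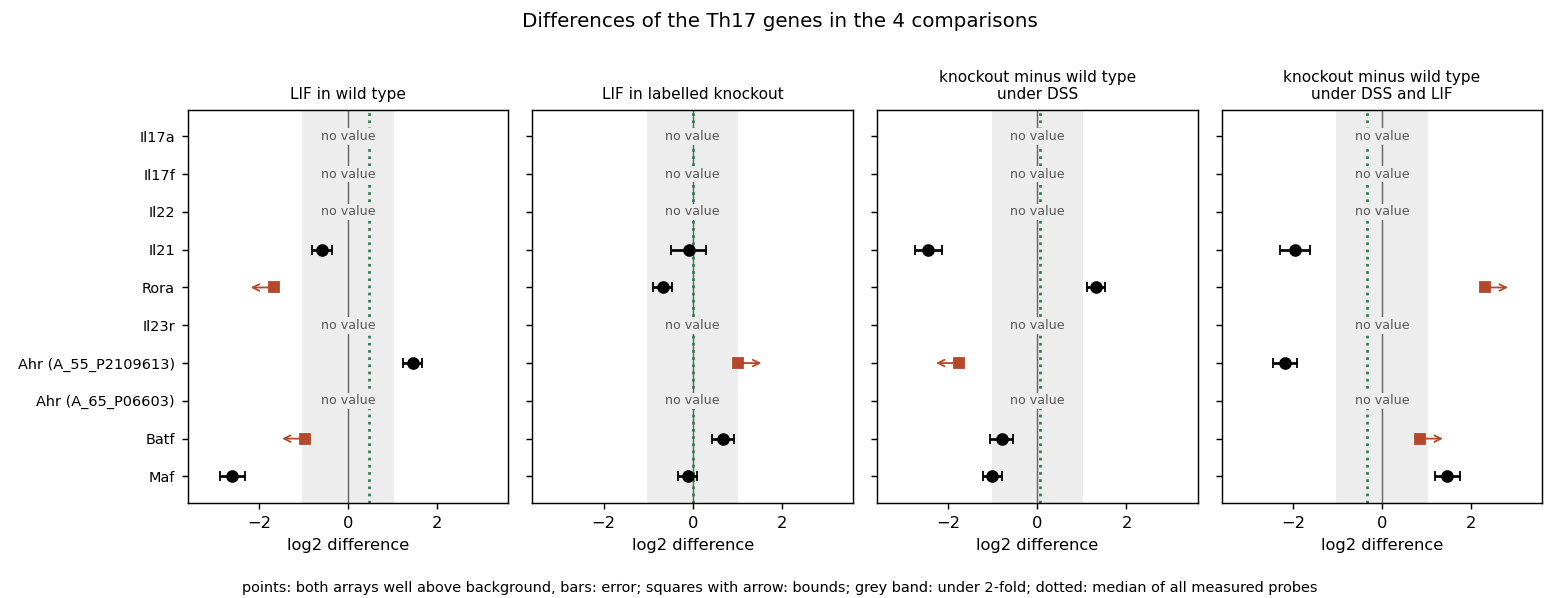
Log2 difference of each probe in the 4 comparisons (x axis), with points for probes well above background on both arrays, bars for the combined measurement error, squares with arrows for bounds, a grey band for under 2-fold and a dotted line at the median of all measured probes; knockout means labelled knockout. Il21 lies left of the band in both genotype comparisons, and Maf lies left of it for LIF in wild type at −2.59 and near 0 for LIF in the labelled knockout at −0.11.

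Counted together, 3 of 10 member probes were measured on both arrays for LIF in wild type, 1 at least 2-fold higher (Ahr) and 1 at least 2-fold lower (Maf). In that comparison 32.2% of 14292 measured probes were at least 2-fold higher and 17% lower. The members' median was −0.59 and that of all probes 0.48. Of the 8 members well above background on wild type DSS 5 were not so on wild type DSS and LIF, against 41.3% of all such probes. Il17a, Il17f and Il22 were among the 5, and 84.2% of probes of their brightness were lost there. Of 3 members well above background on wild type DSS and LIF 0 were gained, against 3.58%. For LIF in the labelled knockout 4 were measured and 0 passed 2-fold in either direction, against 3.51% of 15992 probes higher and 3.22% lower (6.73% in all), with medians of −0.10 and −0.00. Detection was lost for 0 of 4 members, against 9.7% of probes, and gained for 1 of 5 (Ahr), against 11.2%. Between genotypes under DSS 4 were measured, 1 at least 2-fold higher (Rora) and 2 lower (Il21 and Maf), against 13.7% and 7.09% of 17396 probes, with medians of −0.91 and 0.06. Detection was lost for 4 of 8 members on labelled knockout DSS, against 28.5% of probes, and gained for 0 of 4, against 1.77%. Il17a, Il17f and Il22 were among those lost, and 80.2% of probes of their brightness were lost there. Under DSS and LIF 3 were measured, 1 at least 2-fold higher (Maf) and 2 lower (Il21 and Ahr), against 17.9% and 28.5% of 13206 probes, with medians of −1.95 and −0.35. Detection was lost for 0 of 3, against 10.9% of probes, and gained for 2 of 5 (Rora and Batf), against 26.7%.

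Comparisons that share an array are not independent. Wild type DSS and LIF enters the wild type LIF comparison and the genotype comparison under DSS and LIF, and large differences were common in both, at 49.2% and 46.3% of probes. Leaving that array out leaves the genotype comparison under DSS and the LIF comparison in the labelled knockout. Of the differences in those 2, Il21 and Rora between genotypes were the ones of at least 2-fold besides Maf at the threshold and Ahr by its bounds. The shares of higher and lower probes depended on the processing. The median of all measured probes moved too, from 0.48 to −0.01 for LIF in wild type with normexp at an offset of 50. A change of scale and one of background correction therefore cannot be told apart in these shares. With normexp at an offset of 50, 30.7% of the probes past 2-fold were higher for LIF in wild type, against 65.4% in the main values, and 28.7% against 65.8% between genotypes under DSS. They were 31% against 38.6% under DSS and LIF, and 0.688% against 52.2% for LIF in the labelled knockout.

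T cell markers moved between the arrays as well. The median level of 13 pan-T cell markers well above background on every array was 1.02 on wild type DSS, 1.71 on wild type DSS and LIF, 0.67 on labelled knockout DSS and 0.27 on labelled knockout DSS and LIF. Relative to it, Il21 was at −0.30 on wild type DSS, −1.57 on wild type DSS and LIF, −2.39 on labelled knockout DSS and −2.08 on labelled knockout DSS and LIF. The wild type DSS array stays highest for Il21, and the 2 wild type arrays lie further apart than before. Maf was at 0.81, −2.48, 0.15 and 0.44 on that scale, so its low array is again wild type DSS and LIF. Rora was at −0.85 on wild type DSS, 0.82 on labelled knockout DSS and 0.55 on labelled knockout DSS and LIF, so both labelled knockout arrays stay above wild type DSS. The pan-T scale was added after the data were seen.

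**Figure D4:**
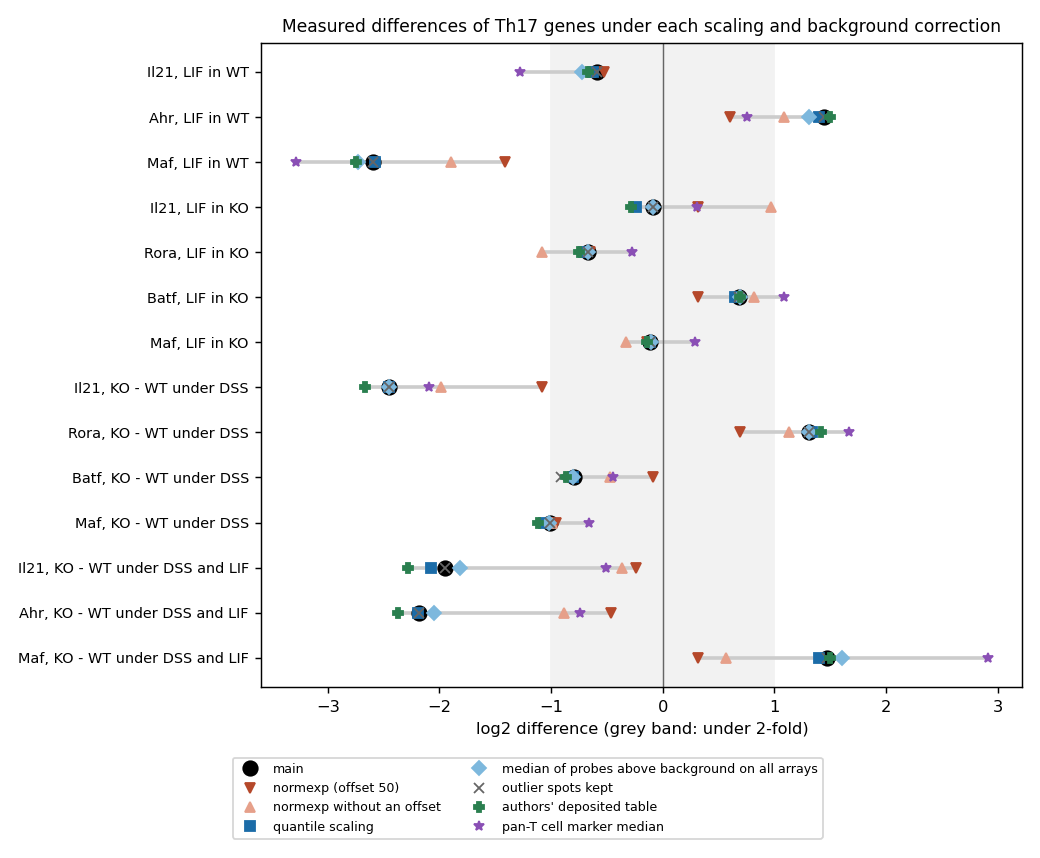
Log2 difference of each member measured on both arrays (rows) in the main values and under 7 other scalings or background corrections (symbols), with KO for the labelled knockout and a grey band for under 2-fold. Il21 between genotypes under DSS and Maf with LIF in wild type stay outside the band under all 7, and the 3 differences under DSS and LIF reach into it.

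Genes around the members in the Th17 pathway come from fixed lists and are counted by their brightest probe. Among upstream cytokines and receptors 12 of 13 genes were matched. Under DSS between genotypes 7 were measured and 0 passed 2-fold, where 13.2% of 10529 measured genes were higher and 6.94% lower. Il23a and Tgfb1, which encode inducers of the program, were not well above background on any array. Il6 was well above background on wild type DSS alone. Its level there, −2.17, lies under the detection limit of each other array, so no difference or bound could be given for it. Il1b, whose product promotes Th17 cells, was 1.73-fold higher in the labelled knockout under DSS (0.79 ± 0.07, and 0.19 with normexp at an offset of 50). For LIF in wild type 5 were measured and 0 passed 2-fold, against 34.4% of 8983 genes higher and 13.7% lower. For Il12rb1, the subunit shared by the interleukin-12 and interleukin-23 receptors, the 2 probes disagreed. One had levels of 7.79, −3.72 (not well above background), 8.11 and 8.15 and the other −0.77, −0.55, −0.95 and −1.36 in the order of the arrays, so no bound is given for it.

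Among the members' partner transcription factors and kinases all 13 genes were matched. Under DSS between genotypes 10 were measured and 0 passed 2-fold, against 13.2% of 10529 measured genes higher and 6.94% lower. Stat3, the factor that interleukin-6, interleukin-21 and interleukin-23 activate, was 1.92-fold higher in the labelled knockout by its brighter probe (0.94 ± 0.08, and 0.31 with normexp at an offset of 50), and its second probe gave levels of −0.53 on wild type DSS and −1.10 on labelled knockout DSS, the other direction. Irf4, the partner of BATF, was well above background on wild type DSS alone. Its level there, −2.84, lies under the detection limit of each other array, so no difference or bound could be given.

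Genes downstream of the cytokines respond mainly in epithelial and myeloid cells. Of 12 genes of the interleukin-17 receptor and its targets 6 were measured under DSS between genotypes, 2 of them at least 2-fold higher and 0 lower. Over all 10529 measured genes the shares were 13.2% and 6.94%. The iron-binding protein gene Lcn2, which interleukin-17 and interleukin-22 induce in epithelium and which neutrophils also carry, was 4.07-fold higher (2.03 ± 0.21), with neutrophil markers higher in the same comparison as given above. With LIF in wild type 6 were measured, 1 at least 2-fold higher and 2 lower, against 34.4% of 8983 genes higher and 13.7% lower. The adaptor gene Traf6 was 7.56-fold higher, and the neutrophil chemokine genes Cxcl2 and Cxcl5 were 5.53-fold and 3.74-fold lower. Of 8 interleukin-22 receptor and target genes 6 were measured under DSS between genotypes. Against 13.2% of all measured genes, 1 was at least 2-fold higher. This was Socs3, 2.55-fold, named after its value was seen, with a log2 difference of 1.35 in the main values and 0.70 with normexp at an offset of 50, under 2-fold. For LIF in wild type 4 were measured and 2 of them were higher, against 34.4% of all measured genes. These were the epithelial lectin genes Reg3b (3.04-fold) and Reg3g (2.36-fold), also named after their values were seen. Neither kept 2-fold with normexp at an offset of 50, where the log2 difference was 0.34 for Reg3b and 0.0076 for Reg3g. In that comparison the median of all measured probes moved as well, from 0.48 to −0.01. All 4 measured neutrophil markers moved down too, such as the bright S100a8 from −0.45 to −1.80. Falling under 2-fold with this setting therefore cannot be read as an effect of background alone, and its cause was not tested. Of 6 AhR targets only Tiparp was measured on every array. Its levels were 1.15 on wild type DSS, −0.40 on wild type DSS and LIF, 0.52 on labelled knockout DSS and 0.73 on labelled knockout DSS and LIF. Tiparp was lowest on wild type DSS and LIF, the array that stands apart, where the scaled level of Ahr was highest. Unscaled, Ahr was brightest on wild type DSS, and a relation between these genes was not tested. Cyp1a1 was well above background on labelled knockout DSS and LIF alone.

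Among 14 other Th17 and innate lymphoid genes 11 were measured under DSS between genotypes. Zbtb16, which encodes the innate-like lymphocyte factor PLZF, was 4.78-fold higher in the labelled knockout (2.26 ± 0.21), and Il1rl1, the interleukin-33 receptor gene, was 2.05-fold lower (−1.03 ± 0.21). For LIF in wild type 11 were measured, 3 higher and 2 lower at 2-fold, against 34.4% of 8983 genes higher and 13.7% lower. The higher genes were Kit (2.83-fold), Il7r (2.46-fold) and Tox (2.02-fold), named after their values were seen. Their log2 differences with normexp at an offset of 50 were 0.48, 0.39 and 0.56, under 2-fold. Cd5l, a lipid regulator of Th17 cells that macrophages make in larger amounts, was 9.59-fold lower, and the lymphotoxin gene Ltb was 3.02-fold lower. For LIF in the labelled knockout 10 were measured and 0 passed 2-fold, where 3.22% of 9781 genes were higher and 3.07% lower. Of the other interleukin-17 family genes, Il17c and Il25 were not well above background on any array, Il17b was so on labelled knockout DSS alone, and Il17d was 2.12-fold higher in the labelled knockout under DSS, a gene named after its value was seen whose log2 difference of 1.09 was 0.70 with normexp at an offset of 50.

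The T helper programs beside Th17 were counted the same way under DSS between genotypes, against a share over all 10529 measured genes of 13.2% past 2-fold upward and 6.94% downward. Of 10 Th1 genes 7 were measured, 1 higher and 3 lower at 2-fold. The T-bet gene Tbx21 was 2.40-fold lower, the chemokine receptor gene Cxcr6 3.67-fold lower and the interleukin-18 receptor gene Il18r1 4.02-fold higher. Of 10 regulatory T cell genes 9 were measured, 1 higher (Lrrc32, 5.90-fold) and 3 lower. The lower genes were Ctla4 (2.56-fold), Foxp3 (2.36-fold) and Ikzf2 (2.21-fold), named after their values were seen. Their log2 differences with normexp at an offset of 50 were −0.77, −0.89 and −0.97, under 2-fold. Of 8 Th2 genes 5 were measured, 1 higher and 2 lower (Il4, 4.28-fold, and Il1rl1). The list medians, by gene, were −0.41 for Th1, −0.23 for regulatory T cell, −0.86 for Th2 and −0.91 for the 4 measured Th17 members. Counted by probe and not by gene, the median over all 17396 measured probes was 0.06. The median of pan-T cell markers was −0.57 in that comparison with 1 of 13 at least 2-fold lower, Cd28 (2.28-fold). Each of these lists held genes within 2-fold, and no test compares the Th17 members with them.

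Genes whose 4 levels run most like those of Il21 and Maf, the members with a level on every array, were found by the distance between levels centred over the arrays, among 8079 named genes well above background on all of them. Nearest to Il21 were Cebpe (distance 0.22), a granulocyte transcription factor gene, Bet1 (0.24) and Trappc2 (0.25), both of vesicle transport, and 11 genes lay within 0.5. Nearest to Maf were Ccdc169 (0.023), Taar7f (0.15) and Cyp26b1 (0.21), which encodes an enzyme that breaks down retinoic acid, and 59 genes lay within 0.5. With 4 arrays such likeness describes an order of levels: wild type DSS above wild type DSS and LIF above both labelled knockout arrays for Il21, and wild type DSS above both labelled knockout arrays above wild type DSS and LIF for Maf.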

How the data were processed

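Total RNA of lamina propria lymphocytes was labelled with Cy3 and hybridized to 4 one-colour Agilent arrays, 1 per group. The deposited scanner output gives intensity per spot, from Agilent Feature Extraction (11.0.1.1 per the file headers, 9.1 per the submitters' processing notes), and its processed signal has background already subtracted. A deposited table of log2 values covers the same arrays, and no source used here states its normalization. Its columns had medians of 3.31, 2.54, 3.31 and 3.31 for wild type DSS, wild type DSS and LIF, knockout DSS and knockout DSS and LIF, and correlated at 0.971 to 0.992 with the log2 scanner values, so a higher value is brighter. Its centring was not settled.

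Each array held 43020 spots of 39429 non-control probes, of which 0 were saturated. Spots marked as outliers were left out, log2 signals of a probe's spots were averaged, and the array's 75th percentile was subtracted. A probe with the software's mark on at least 50% of its spots was taken as well above background. RefSeq accessions named 27234 probes (69.1%). A difference was counted at a log2 of at least 1 when both arrays were well above background. A probe detected on 1 array received a bound, from the higher of its own dim level and the dimmest level well above background there, and none was given where that bound had the opposite sign. Errors are the software's estimate for 1 spot, or the SD over spots for a probe with several, such as those of Batf and Stat3. They are combined in quadrature and cover measurement within an array alone. The number of arrays limits the precision, and no p-value was computed.

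Alternatives were normexp with limma 3.58.1 in R 4.3.3 on median signal and background (offset 50, and none), quantile scaling, no background filter, the median of probes above background on all arrays, those probes alone, outlier spots kept, and the deposited table. The pan-T cell scale was added after seeing the data. The procedure was tested on simulated data.

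The members and lists were chosen with earlier results of these data known. Named were all members, and of the other lists at most 4 genes per list and comparison that differed by at least 2-fold in one direction in the main values, with normexp at an offset of 50 and with quantile scaling. A gene outside this rule is said to be so or stands beside a member for its role. One further gene is not reported here.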

Additional observations from a re-analysis of the deposited data

Results flagged for a closer look

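In the main values Batf differed between the genotypes in the direction of its LIF difference. In wild type its log2 difference with LIF was −0.96 or lower, a bound because the probe was not well above background on the array of wild type DSS and LIF, and in the labelled knockout it was 0.68. With normexp at an offset of 50 and no background filter the values were −0.05 in wild type and 0.32 in the labelled knockout, so the wild type difference was then near 0. With 1 array per group the difference between these 2 values was not tested, and the wild type value rests on the array that stands apart from the rest.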

How the results depend on the processing

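Counts of member probes at least 2-fold apart were 2, 0, 3 and 3 in the main values for LIF in wild type, LIF in the labelled knockout, genotype under DSS and genotype under DSS and LIF. With normexp at an offset of 50 they were 1 for LIF in wild type, 1 for genotype under DSS and 0 for genotype under DSS and LIF. With normexp without an offset they were 1 for LIF in the labelled knockout and 0 for genotype under DSS and LIF, and against pan-T cell markers 1 and 1 for the same comparisons. Both settings gave 2 for genotype under DSS. Against pan-T cell markers LIF in wild type kept a count of 2 with other members, 0 higher and 2 lower, since Ahr (0.76) was lost and Il21 (−1.28) came in. Without a background filter they were 6, 2, 6 and 5, where signals near background enter. With probes above background on all arrays alone the counts were 1, 0, 2 and 2, since Il21 and Maf alone enter. The cause of the other shifts was not tested. Over 14 measured differences and 7 scalings or corrections, 94 of 98 values kept their sign. The 4 that did not were 3 of Il21 and 1 of Maf for LIF in the labelled knockout. Of 56 values of the 8 differences past 2-fold 42 stayed past it, and 3 of 42 values of the others came to pass it. Bounds were computed in the main values alone, and with normexp at an offset of 50 and no background filter none of the bounded differences of Rora, Ahr and Batf reached 2-fold. That offset is above the 75th percentile processed signal of every array but wild type DSS (23.8, 45.3 and 43.3). It draws differences of dim probes towards 0, so those values cannot decide whether the bounds hold. No paired analysis was possible because each group has 1 array and the labels give no replicate numbers. For the same reason no array could be left out within a group. Signal over background limits Il17a, Il17f, Il22, Il23r and the second Ahr probe, for which no difference could be given.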
